A study of Mus musculus with 8 samples.

Results

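Zfp genes are mouse genes whose symbols mark them as coding for zinc finger proteins. The genes described here carry the symbol Zfp followed by a number alone and had a mean of 1.5 FPKM (reads scaled by gene length and library depth) or more in the 4 control libraries. Of the 24060 rows in the deposited count table, 333 had such a symbol and 279 also met the level. All 279 passed the filter on low counts and were tested. The tissue was whole mouse cerebellum, profiled by RNA sequencing of bulk RNA. The 4 bigenic mice carried CalExflox, a Cre-dependent allele for a calcium pump of the plasma membrane, and Aldh1l1-Cre/ERT2, in which the astrocyte promoter Aldh1l1 drives a Cre that tamoxifen activates. The 4 control mice carried CalExflox without Cre. All mice of both groups were injected intraperitoneally with tamoxifen once, at 75 mg/kg from a corn oil solution holding 25 mg/ml, and the cerebellum was collected after 5 days. Because Cre was present only in the bigenic mice, effects of the pump and of Cre cannot be told apart, and the labels used here give neither the sex nor the age of the mice. In bulk tissue, fewer cells of a type and less RNA per cell cannot be told apart either.

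The C2H2 zinc finger is a small fold held by a zinc ion, and proteins with arrays of such fingers use them to read DNA. Many of them also carry a KRAB box, a short domain near the start of the protein that recruits the scaffold protein Trim28. Trim28 in turn brings the histone methyltransferase Setdb1, heterochromatin proteins and histone deacetylases, and the complex silences transposable elements and other targets. KRAB zinc finger genes arose by repeated local duplication and lie in clusters on a few chromosomes. Zfp genes without a KRAB box include regulators of brain development, RNA-binding proteins and chromatin cofactors, and have little in common beyond the finger.

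Counted reads ranged from 35208460 to 38293012 per library. Purkinje, granule cell and general cerebellar markers were present in every library, with Pcp2 at 653 ± 25.5 CPM (reads scaled to library size; SD, n = 4) in bigenic and 588 ± 44.2 in control libraries, whereas the forebrain gene Neurod6 was near 7 CPM. The control libraries differed among themselves in markers of the choroid plexus, the epithelium that lines the adjoining ventricle. The summed level of 10 such markers was 163.5 to 232.1 CPM in the bigenic libraries and 665.3, 3830, 4859 and 295 in control libraries 1 to 4, and 9 of the 10 markers passed the test as lower. Enpp2, at 114 to 178 CPM, made up most of the sum in the bigenic libraries and, at 248.5 CPM, in control library 4. Ttr, the most abundant marker in the control mean, was at 2.25 to 4.62 CPM in the bigenic libraries. In control libraries 1 to 4 it was at 300.2, 2360, 2961 and 2.77 CPM. Control libraries 2 and 3 thus stood apart, and counts below are also given without them and with the Ttr level as a covariate. Ttr was low in every bigenic library, so the covariate partly follows genotype, and the other fit keeps only control libraries 1 and 4. Of all genes at 1.5 FPKM or more in controls, 46.9% were called with all libraries, 23.1% without these libraries and 20% with the covariate. A call lost in either fit need not mean a smaller fold change. Of 5 granule cell markers, Gabra6 (log2 fold change -0.55) and Neurod1 (-0.33) were lower and Cbln3 (0.39) was higher in bigenic tissue, En2 (-0.44) was lower among 3 cerebellar genes, and 0 of 5 Purkinje markers were called. Of 5 astrocyte and Bergmann glia markers, Aldh1l1 and Gdf10 were higher, Aqp4 was lower, and Slc1a3 and Gfap were not called. Of 4 microglial markers, Cx3cr1 and P2ry12 were lower, and Tmem119 and C1qa were not called. Tek was lower among 5 endothelial genes, and Mbp higher among 4 of oligodendrocytes. The part of these markers in the differences of the Zfp genes was not tested.

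More Zfp genes fell than rose in bigenic cerebellum, and the lower genes were mostly those with a KRAB box. Of the 279 Zfp genes, 93 were lower, 55 were higher and 131 did not pass the test (edgeR quasi-likelihood test, adjusted p under 0.05 over 15186 genes). The comparison changed much of the transcriptome: 44.3% of all genes tested were called, 21.4% as higher and 22.9% as lower. Among the 11903 genes tested at the same control level, 46.9% were called, 23% as higher and 24% as lower, against 53%, 19.7% and 33.3% of the Zfp genes. The median log2 fold change, bigenic relative to control, was -0.05 for the Zfp genes and 0.01 for all genes at that level. A decrease beyond 1.5-fold was called for 60 Zfp genes and an increase of that size for 8, where 9.48% and 6.59% of all genes at the level were called so. Beyond 2-fold, 24 Zfp genes were lower and 1 higher, beside 2.86% and 1.56% of all genes at the level. The 4 bigenic and 4 control values did not overlap in 141 Zfp genes, beside 43.3% of all genes at that level.

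The control level chose the genes, so a gene that was high in the controls entered more readily than one that was low there. In this choice 15 genes reached 1.5 FPKM in the control mean alone, and 14 of them were called lower, whereas the 3 Zfp genes that reached it in the bigenic mean alone were all called higher. With the level required in both groups, 264 genes remained, of which 79 were lower and 55 higher. Just inside the level were Zfp455 (1.64 FPKM in control libraries), Zfp947 (1.71) and Zfp691 (1.73), with log2 fold changes of -1.55, -0.94 and -0.18. Just outside were Zfp97 (1.47), Zfp202 (1.48) and Zfp879 (1.48), with -0.30, -0.05 and -0.85. Control levels of the Zfp genes had a median of 8.54 FPKM, with quartiles of 4.54 and 12.6 FPKM.

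A KRAB box was scored from the translated longest coding sequence of each gene in GENCODE M21, as a match at 14 or more of 24 conserved positions. By this score 155 Zfp genes had the box and 124 did not. Of the latter, 113 scored below 10 and 2 had no coding sequence to score. A gene whose longest coding sequence lacks the box counts as without it here, even if a shorter transcript codes for one. To show what the score reads, the coding DNA of the box is given 5′ to 3′ for 2 lower genes and 1 higher gene, with codons that match a conserved position in capitals. The positions are on mm10, at chr13:67783796-67783915 (plus strand) for Zfp493, chr13:67198539-67198658 (plus strand) for Zfp455 and chr6:48042030-48042149 (minus strand) for Zfp777, each within 1 coding exon.
Zfp493: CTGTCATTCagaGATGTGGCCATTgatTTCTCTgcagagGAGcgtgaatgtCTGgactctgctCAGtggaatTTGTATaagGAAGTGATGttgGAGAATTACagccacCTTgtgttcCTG
Zfp455: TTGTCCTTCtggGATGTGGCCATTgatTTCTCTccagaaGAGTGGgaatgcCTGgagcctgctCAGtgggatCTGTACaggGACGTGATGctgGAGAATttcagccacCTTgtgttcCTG
Zfp777: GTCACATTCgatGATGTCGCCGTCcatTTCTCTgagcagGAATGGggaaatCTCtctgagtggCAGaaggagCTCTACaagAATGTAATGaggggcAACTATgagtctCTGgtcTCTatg
All 3 matched 22 of the 24 positions. Zfp493 and Zfp455, from 1 stretch of chromosome 13 and both lower, were identical at 102 of these 120 bases (85%), while Zfp777, which was higher, shared 64 (53.3%) with Zfp493.

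Genes with and without the box differed in their calls. Of the 155 with a KRAB box, 72 were lower and 20 higher (46.5% and 12.9%), with a median log2 fold change of -0.23. Of the 124 without it, 21 were lower and 35 higher (16.9% and 28.2%), with a median of 0.08. The latter direction depended on scaling. With library size alone, 26 were lower and 24 higher (21% and 19.4%) and the median was -0.0068. The KRAB genes then stood at 77 lower and 15 higher (49.7% and 9.68%). That scaling moved all genes at the level down too, to 30.6% lower and 16.6% higher, with a median of -0.0732. The per-library medians of the KRAB genes, as log2 deviations from each gene's mean, were 0.04, -0.23, -0.23 and -0.03 in bigenic libraries 1 to 4. In control libraries 1 to 4 they were 0.07, 0.09, 0.21 and 0.13. All bigenic medians lay below all control medians, although bigenic library 1 lay just under control library 1. The summed level of the KRAB genes, which the abundant ones dominate, overlapped between the groups, at 4228 to 4925 CPM in bigenic and 4747 to 5308 in control libraries.

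Without control libraries 2 and 3, 47 KRAB genes were lower and 10 higher, and with the Ttr level as a covariate 41 were lower and 9 higher. The genes without a box then had 16 lower and 11 higher, and 13 lower and 4 higher, while their medians stayed above 0, at 0.0895 and 0.1235. For all genes at the level, the share called lower was 12.3% without these libraries and 11.1% with the covariate. Against this stood 30.3% and 26.5% of the KRAB genes, and 12.9% and 10.5% of those without the box. The share called higher was 10.8% and 8.89% of all genes at the level. It was 6.45% and 5.81% of the KRAB genes, and 8.87% and 3.23% of those without the box. Over all Zfp genes the counts were 63 lower and 21 higher without these libraries, and 54 lower and 13 higher with the covariate.

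**Figure D1:**
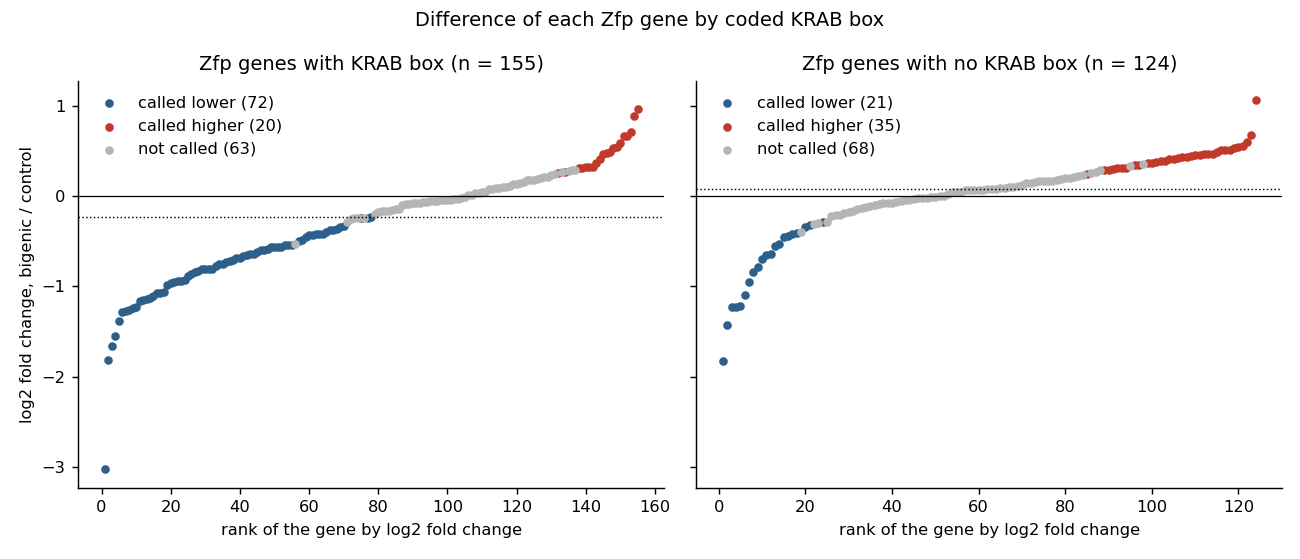
Log2 fold change (bigenic relative to control, vertical axis) of every Zfp gene against its rank, for genes with a KRAB box (left) and without one (right). Each point is 1 gene, colored by its call, the dotted line is the median of the panel, and the left panel holds 72 lower and 20 higher genes against 21 and 35 in the right.

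**Figure D2:**
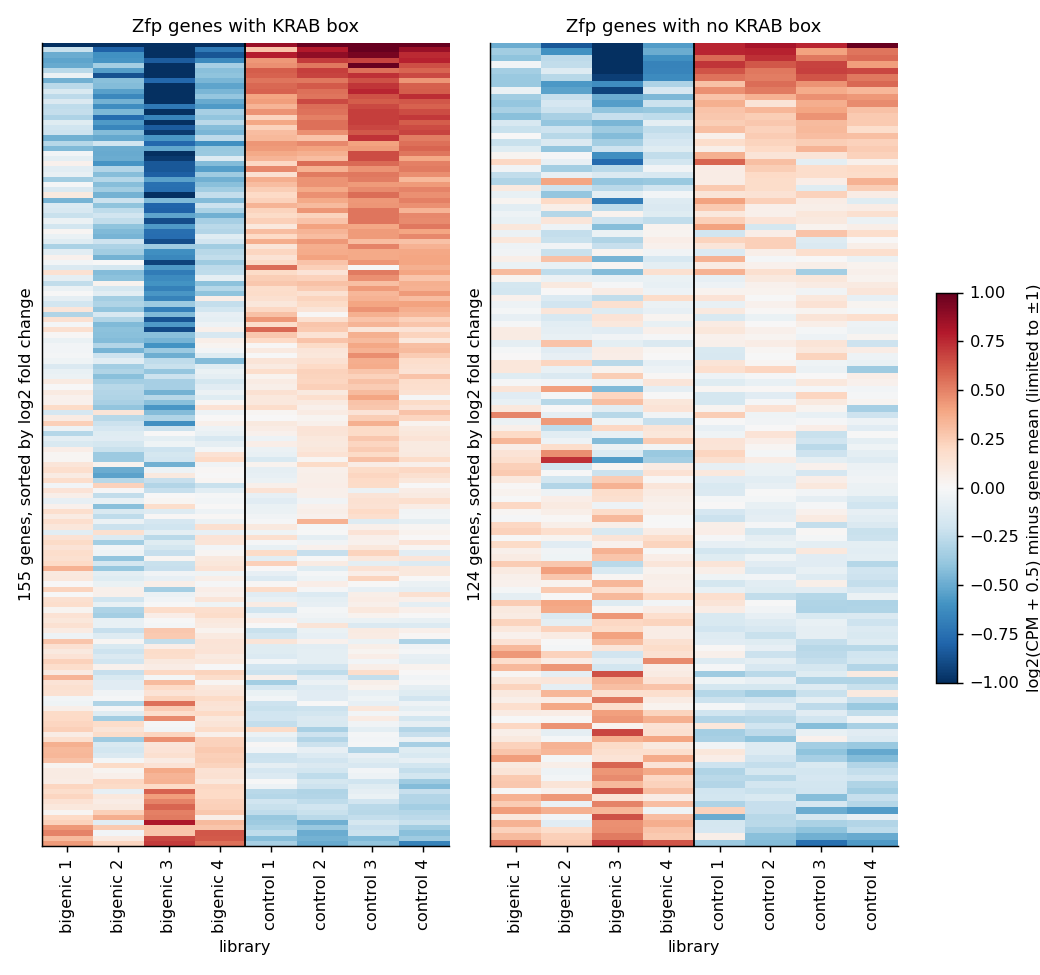
Log2(CPM + 0.5) of each Zfp gene minus its mean over the 8 libraries, with the color limited to 1 in either direction. Columns are libraries, rows are genes sorted by log2 fold change, and the lower KRAB genes, at the top of the left panel, are deepest in bigenic library 3.

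Of the 72 lower KRAB genes, 13 reached 1.5 FPKM in the control mean alone, so the rule favored their decrease. With the level required in both groups, 59 of 142 KRAB genes were lower and 20 higher, with a median log2 fold change of -0.15, and 20 of 122 genes without the box were lower and 35 higher. By the mean FPKM over all 8 libraries, 35 of 56 KRAB genes under 5 FPKM were lower, these 13 included, and 3 higher. From 5 to 15 FPKM, 34 of 76 were lower and 10 higher, and at 15 FPKM or more 3 of 23 were lower and 7 higher. The calls are given by number of fingers as a description, beside 46.5% lower and 12.9% higher of all KRAB genes. KRAB genes with 16 fingers or more had 18 lower and 0 higher of 30, with a median log2 fold change of -0.46, and those with 13 to 15 fingers had 18 lower and 3 higher of 38. Those with 10 to 12 fingers had 22 lower and 9 higher of 48, and those with 7 to 9 fingers 11 lower and 6 higher of 31. Genes without the box but with 16 or more fingers had 4 lower and 5 higher of 17. The SCAN domain, which lets such proteins pair, was found in 11 Zfp genes, of which 4 were lower and 2 higher.

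Base composition moved with the calls. KRAB genes are poor in G and C, with a median of 44% in the coding sequence against 54.2% for Zfp genes without the box and 53% for all genes at the level. Among all genes at that level, the quintile with the lowest GC content had 29.9% lower and 17.4% higher, and the quintile with the highest had 16.8% lower and 27.8% higher. Within the lowest quintile, 53 of 102 KRAB genes were lower (52%) and 9 higher, beside 28.9% lower and 17.8% higher of the 2162 genes there that are not in the set. The 27 Zfp genes without a box in that quintile had 8 lower and 5 higher. With an offset for gene length and GC content, 64 KRAB genes were lower and 33 higher (41.3% and 21.3%), and their median was -0.16. Of all genes at the level, 25.3% were then lower and 28.5% higher, with a median of 0.02.

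Zfp493 showed the deepest decrease of any Zfp gene, and it is 1 of the 15 genes that met the level in controls alone (2.16 FPKM, against 0.249 in bigenic libraries). It lies at chr13:67779693-67792512 (plus strand, mm10) and codes for a KRAB protein with 11 fingers. Its level was 0.742, 0.974, 0.778 and 0.862 CPM in bigenic libraries 1 to 4 and 5.18, 7.10, 7.43 and 7.75 in control libraries 1 to 4. The lowest control library was thus still far above the highest bigenic one. The log2 fold change was -3.03 ± 0.18 (SE), an 8.14-fold decrease (adjusted p = 2.47e-06, edgeR).

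Zfp109, a KRAB gene at chr7:24227572-24237560, had the next smallest p. Its level was 11.4, 11, 10.9 and 12 CPM in bigenic and 21.4, 21.0, 21.3 and 23.9 in control libraries 1 to 4. Both groups were tight and did not overlap, and the fall was 1.93-fold (log2 fold change -0.95 ± 0.09, adjusted p = 2.31e-05, edgeR). Zfp866, a KRAB gene at chr8:69761326-69791178, had 31.9, 29.6, 16.7 and 24.7 CPM in bigenic and 78.0, 83.8, 87.8 and 76.1 in control libraries. Bigenic library 3 was the lowest of its group, and the fall was 3.16-fold (-1.66 ± 0.16, adjusted p = 3.71e-05, edgeR). Exons of Zfp866 overlap those of Gm20422 on the same strand and of Atp13a1 on the other, so the reads may be shared.

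Zfp455, another KRAB gene of the chromosome 13 group, had 1.63, 1.54, 1.23 and 1.47 CPM in bigenic and 3.65, 4.49, 4.41 and 4.73 in control libraries. The groups were separate, with a 2.94-fold fall (-1.55 ± 0.16, adjusted p = 4.65e-05, edgeR). Zfp595, with 18 fingers and from the same group, fell by 2.21-fold, from 10.8 ± 1.04 to 4.88 ± 0.788 CPM (SD, n = 4). Exons of Zfp595 overlap those of Gm28044 on its own strand. Zfp964 on chromosome 8 fell by 2.40-fold, from 4.19 ± 0.271 to 1.75 ± 0.250 CPM. Zfp658, a KRAB gene with 21 fingers, fell by 1.79-fold, from 36.4 ± 2.17 to 20.4 ± 1.67 CPM.

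The lower genes with the smallest p included 5 for which no KRAB box was scored. Zfp72 on chromosome 13 had 3.31, 2.49, 1.41 and 3.14 CPM in bigenic and 8.62, 9.0, 8.59 and 10.6 in control libraries, a 3.55-fold fall (-1.83 ± 0.22, adjusted p = 9.75e-05, edgeR). All bigenic values were below all control values. Zfp329 fell by 2.14-fold, from 57.8 ± 2.15 to 27.0 ± 5.39 CPM. Zfp420 fell by 1.93-fold, from 40.8 ± 3.65 to 21.1 ± 2.28 CPM, and Zfp180 by 1.58-fold, from 90.9 ± 3.34 to 57.6 ± 3.39 CPM. Zfp277, a partner of Polycomb repressive complexes, fell by 1.72-fold, from 24.9 ± 1.39 to 14.5 ± 1.26 CPM. Of these 12 genes, Zfp493, Zfp455, Zfp595 and Zfp964 met the level in controls alone. All 12 were called lower under every alternative run, including those without control libraries 2 and 3 and with the Ttr covariate.

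Increases were smaller. Zfp651 was the 1 called Zfp gene above 2-fold. It has 7 fingers and no KRAB box and lies at chr9:121759330-121771742. Its level was 112, 93.1, 126 and 120 CPM in bigenic libraries 1 to 4 and 60.1, 57.1, 45.9 and 52.2 in control libraries 1 to 4. The groups were well apart, and the rise was 2.10-fold (1.07 ± 0.11, adjusted p = 4.13e-05, edgeR). Exons of E530011L22Rik lie on the opposite strand there, and whether counting used strand is not given in the sources used here.

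Zfp777, the KRAB gene printed above, had 85.8, 74.3, 104 and 93.7 CPM in bigenic and 50.7, 44.8, 48.5 and 40.0 in control libraries. No values overlapped, and the rise was 1.94-fold (0.96 ± 0.11, adjusted p = 7.89e-05, edgeR). Zfp112, a KRAB gene with 12 fingers, had 19.2, 16.4, 24.7 and 23.7 CPM in bigenic and 11.3, 10.9, 11.2 and 11.9 in control libraries. The control values were tight and the bigenic ones all higher, for a 1.85-fold rise (0.89 ± 0.13, adjusted p = 0.000304, edgeR). Exons of Gm24563 lie opposite Zfp777, and those of Gm44793 opposite Zfp112.

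Zfp810 rose 1.64-fold, from 26.6 ± 2.50 to 43.6 ± 8.29 CPM, and Zfp963 rose 1.58-fold, from 7.78 ± 0.366 to 12.3 ± 0.747 CPM. The value of Zfp963 is uncertain, because 39.1% of its 75-base windows also occur in other genes. Zfp668 rose 1.52-fold, Zfp871 1.5-fold, Zfp398 1.45-fold, Zfp12 1.44-fold, Zfp358 1.4-fold and Zfp949 1.39-fold. Of these, Zfp358 and Zfp668 lack a KRAB box, and exons of Zfp668 overlap those of Zfp646 on the other strand. Zfp423, described with the developmental regulators, completes the 12 higher genes with the smallest p. All 12 kept their calls in every alternative except with the Ttr covariate, where Zfp668 (adjusted p = 0.055, edgeR), Zfp423 (0.0649) and Zfp398 (0.0552) were not called.

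**Figure D3:**
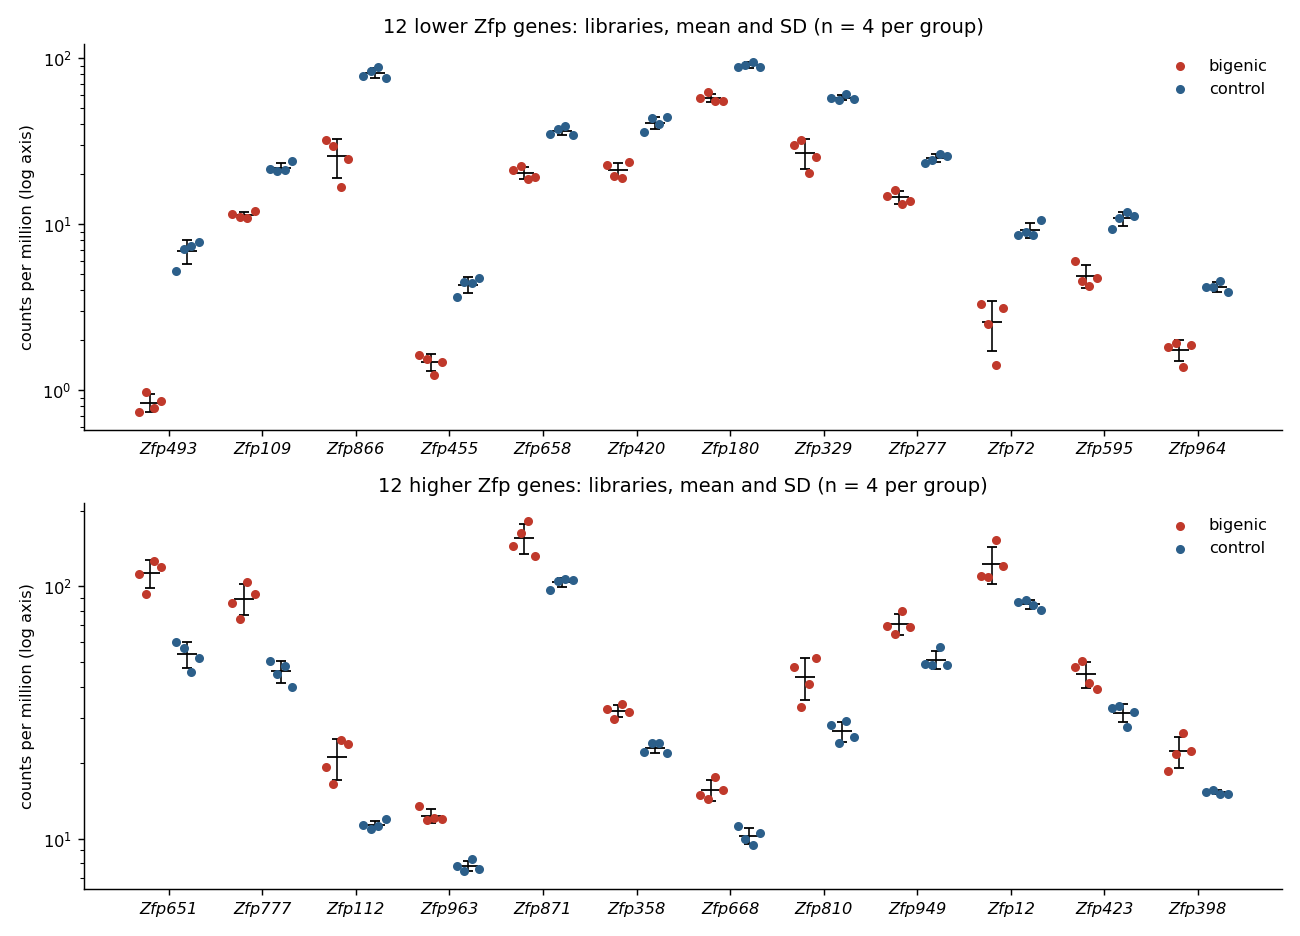
CPM on a log axis for the 12 lower and the 12 higher Zfp genes with the smallest p among those whose groups do not overlap. Points are libraries (bigenic in red, control in blue, n = 4 per group) and the black marks are the mean and SD, so that Zfp493 is seen below 1 CPM in all bigenic libraries and Zfp651 at 93.1 CPM or more.

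Per length, Zfp644 was the most abundant Zfp gene in control tissue, at 146 FPKM. Its product works with the histone methyltransferases Ehmt1 and Ehmt2. Its level was 841, 679, 1057 and 904 CPM in bigenic and 747, 786, 897 and 800 in control libraries, with overlapping groups (0.11 ± 0.12, adjusted p = 0.479, edgeR). Zfp207 followed at 52.5 FPKM (log2 fold change -0.02 ± 0.08), then Zfp260 at 45.4, Zfp521 at 39.4 (-0.02 ± 0.11), Zfp740 at 39.1 and Zfp191 at 37.6 FPKM. Zfp260 fell by 1.34-fold, from 164 ± 13.4 to 122 ± 10.5 CPM, and Zfp740 rose 1.29-fold, from 163 ± 4.47 to 210 ± 25.2 CPM. Exons of Csad lie opposite Zfp740.

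Zfp genes lie close together, and 126 of the 279 formed 14 runs of 4 or more with gaps of at most 500 kb. Within the runs 58 were lower and 18 higher, and outside them 35 of 153 were lower and 37 higher. Beside these, 24% of all genes at the level were lower and 23% higher, and 46.5% and 12.9% of all KRAB genes. Runs differed in direction, and in several of them the calls went 1 way.

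The run on chromosome 13, chr13:67038596-67827002, held 15 genes, all with a KRAB box. Of these, 11 were lower and 0 higher, all 15 log2 fold changes were below 0 and their median was -0.93. Of these, Zfp493, Zfp455, Zfp429 and Zfp595 met the level in controls alone, and the other 11 had 7 lower and a median of -0.66. Zfp493 and Zfp455, described above, belong to it. Zfp429 had 2.03, 1.19, 0.688 and 1.31 CPM in bigenic and 3.09, 4.62, 5.88 and 4.88 in control libraries, a 3.53-fold fall (-1.82 ± 0.29, adjusted p = 0.000553, edgeR). Zfp65 fell from 33.3 ± 1.47 to 14.1 ± 3.91 CPM, Zfp759 from 28.6 ± 2.94 to 12.8 ± 2.93 CPM and Zfp712 from 35.1 ± 3.15 to 16.6 ± 5.38 CPM. Next to them, Zfp738 (37.6 CPM in bigenic library 4 and 41.6 in control library 4, log2 fold change -0.04 ± 0.08), Zfp748 (-0.05 ± 0.11), Zfp85 (-0.15 ± 0.12) and Zfp87 (-0.17 ± 0.13) did not pass the test. Of the 15 genes, 10 were lower without control libraries 2 and 3, 9 with the Ttr covariate and 10 with the offset for length and GC. In this run, all of the 75-base windows of Zfp708 and 49.6% of those of Zfp58 occur in other genes, so their counts are uncertain.

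Promoters of these genes share a short element, shown here because it recurs through the run. RefSeq promoter windows on GRCm38.p6, which reach from 250 bases before to 50 bases after each start, matched 231 of the 279 Zfp genes by symbol, and 13 of the 15 in the run. Reading them brought out GGG followed, after 3 more bases, by TGTAGT, once in each of the 13. Of the bases between, all 13 share the first, and N stands where they differ. This gives the motif GGGANNTGTAGT, searched on both strands, which resembles the known binding element of Zfp143. It was chosen after those sequences and their genes' values had been seen, so its shares are a description without a test. Below are 36 bases around the motif, 5′ to 3′ on the strand named and in chromosome order, with the motif in capitals.
Zfp712: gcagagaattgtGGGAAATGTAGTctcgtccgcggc
Zfp708: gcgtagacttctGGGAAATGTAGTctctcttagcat
Zfp759: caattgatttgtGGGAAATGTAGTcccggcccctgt
Zfp455: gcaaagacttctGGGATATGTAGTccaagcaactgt
Zfp458: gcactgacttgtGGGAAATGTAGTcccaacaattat
Zfp595: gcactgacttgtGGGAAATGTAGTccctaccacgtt
Zfp429: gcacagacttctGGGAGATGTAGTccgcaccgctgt
Zfp58: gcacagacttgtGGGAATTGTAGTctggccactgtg
Zfp748: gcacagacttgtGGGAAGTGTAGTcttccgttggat
Zfp738: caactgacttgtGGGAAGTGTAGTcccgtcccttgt
Zfp65: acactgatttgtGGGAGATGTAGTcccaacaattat
Zfp85: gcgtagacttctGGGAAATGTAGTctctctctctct
Zfp273: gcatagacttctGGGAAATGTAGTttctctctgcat
The lines run from chr13:67061203-67061238 (minus strand, Zfp712) to chr13:67813737-67813772 (plus strand, Zfp273). Each is on the strand of its gene, plus for Zfp759, Zfp455 and Zfp273 and minus for the others. Promoters of Zfp748, Zfp738 and Zfp85, which did not pass the test, are among the 13. The motif was built from these 13 promoters, so all hold it by construction. Within the run it therefore could not separate lower genes from the rest. Zfp109 on chromosome 7 carried it too, at chr7:24237700-24237735 (minus strand).
Zfp109: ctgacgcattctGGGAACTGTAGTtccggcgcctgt

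Over all promoters, 563 of 27025 genes (2.08%) held the motif, against 48 of the 231 Zfp genes (20.8%). It was in 36 of 135 KRAB genes (26.7%) and 12 of 96 without the box (12.5%). By call, 23 of 63 lower KRAB genes (36.5%), 3 of 18 higher ones (16.7%) and 10 of 54 others (18.5%) held it. The counts so far include the 13 promoters of the chromosome 13 run, from which the motif was built. Outside that run, 13 of 53 lower KRAB genes (24.5%), 3 of 18 higher ones (16.7%) and 7 of 51 others (13.7%) held it. Seen the other way and with the run included, 23 of the 36 KRAB genes with the motif were lower, with a median log2 fold change of -0.58. Of the 99 without it, 40 were lower, with a median of -0.08. Outside the chromosome 13 run, 13 of 23 with the motif were lower, with a median of -0.42. Zfp143 itself was at 38.7 ± 1.66 CPM in bigenic and 38.9 ± 4.52 in control libraries (log2 fold change -0.01 ± 0.09, adjusted p = 0.948, edgeR).

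The motif was 1 of 18 looked for in these windows on both strands. Among parts and extensions of it, TGTAGT was in 11.8% of all genes and 46% of lower KRAB genes, and the overlapping ACTACAA in 3.78% and 12.7%. A shorter form, which begins at the second G, has A as the first gap base, leaves the T before GTAG open and ends there, was in 2.02% and 33.3%, and a form with T before and CC after it in 0.485% and 15.9%. CCGGAAG, an ETS-type element, was in 9.93% of all genes, 25.4% of lower and 11.1% of higher KRAB genes. GGGCGG, an Sp1-type element, was in 38.2%, 33.3% and 55.6%. The share in all genes and in lower KRAB genes was 8.09% and 6.35% for CACGTG, 2.03% and 3.17% for TGACGTCA, 1.64% and 3.17% for AAGATGGCG, and 2.42% and 3.17% for CCATCTTG. It was 41.1% and 52.4% for CCAAT, 15.7% and 9.52% for TATAAA, 9.6% and 7.94% for TTCNNGAA, and 5.95% and 4.76% for TGACTCA. The NRF1 element was in 1.07% and 6.35%, and neither of 2 forms of the glucocorticoid response element was in a lower KRAB gene. Among all KRAB genes, called or not, the shares were 34.8% for TGTAGT, 8.15% for ACTACAA, 22.2% for CCGGAAG and 40% for GGGCGG. They were 24.4% for the shorter form, 11.9% for the extended form and 4.44% for the NRF1 element. CACGTG stood at 9.63%, TGACGTCA at 2.96%, AAGATGGCG at 3.7%, CCATCTTG at 4.44% and CCAAT at 51.1%. TATAAA and TTCNNGAA stood at 8.15% each, and TGACTCA at 4.44%. In the 18 higher KRAB genes the shares were 27.8% for TGTAGT and 5.56% for ACTACAA. The shorter form was in 16.7% of them. The extended form was also in 16.7%, beside 15.9% of the lower ones. CCAAT stood at 55.6%, and AAGATGGCG, CCATCTTG and TATAAA at 11.1% each. CACGTG, TTCNNGAA and TGACTCA stood at 5.56% each, and TGACGTCA and the NRF1 element at 0%.

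Other runs moved the same way or differed. On chromosome 17, chr17:21008903-23599487 held 18 genes, 17 with a KRAB box, of which 11 were lower and 0 higher. Zfp677 fell from 8.30 ± 1.53 to 3.17 ± 1.12 CPM, Zfp948 from 21.9 ± 3.31 to 10.2 ± 1.60 CPM and Zfp758 from 30.2 ± 4.10 to 14.4 ± 2.84 CPM. None of the 16 promoters found there held the motif. In this run 8 genes were lower without control libraries 2 and 3, and 5 with the Ttr covariate, and the offset for length and GC gave 10 lower and 4 higher. On chromosome 7, the run at chr7:29768552-30169750 had 9 lower and 1 higher of 15, the higher one being Zfp383 at 7.2 ± 0.451 against 5.77 ± 0.175 CPM, and 10 of its 14 promoters held the motif. With control libraries 2 and 3 left out, 5 of these 15 were lower, and with the covariate 3. All 4 genes of the run at chr8:71882019-71993792 (Zfp709, Zfp882, Zfp617 and Zfp961) were lower.

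In another run on chromosome 7, chr7:24081924-24515682, 7 of 10 genes were lower and 2 higher. Only 4 were lower without control libraries 2 and 3, 4 with the Ttr covariate and 5 without bigenic library 2. Zfp112 lies in this run beside Zfp180, and Zfp61 rose from 29.0 ± 0.968 to 40.5 ± 5.47 CPM between Zfp93, which fell from 21.8 ± 1.51 to 9.25 ± 3.06 CPM, and Zfp94. Zfp112 and Zfp109, in opposite directions, both held the motif. On chromosome 8, at chr8:69209038-69791178, Zfp963 was higher, whereas Zfp866 next to it and Zfp964 were lower. Over all runs, 45 of the 112 adjacent pairs had both genes called, 31 as lower, 4 as higher and 10 in opposite directions. Of the single genes in the runs, 60.3% were called, 46% as lower and 14.3% as higher. Whether neighbours went together more often than these shares would give was not tested.

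The run on chromosome 6, chr6:47819266-48623227, went the other way, with 6 of 10 genes higher and 0 lower and a median of 0.35. Besides Zfp777, Zfp398 and Zfp746, it held Zfp956 (from 33.5 ± 1.5 to 49.0 ± 8.12 CPM), Zfp212 (from 20.6 ± 2.37 to 27.4 ± 0.157 CPM) and Zfp467 (from 28.9 ± 1.24 to 36.5 ± 6.23 CPM). Zfp786 was the 1 gene of the run below 0 (-0.53 ± 0.22, adjusted p = 0.0689, edgeR). Genes of this run were richer in G and C, with a median of 59%, against 40.2% in the chromosome 13 run, and 6 of them had a KRAB box. When control libraries 2 and 3 were left out, 4 were higher, and with the Ttr covariate 2. With library size alone 5 were higher and 1 lower.

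**Figure D4:**
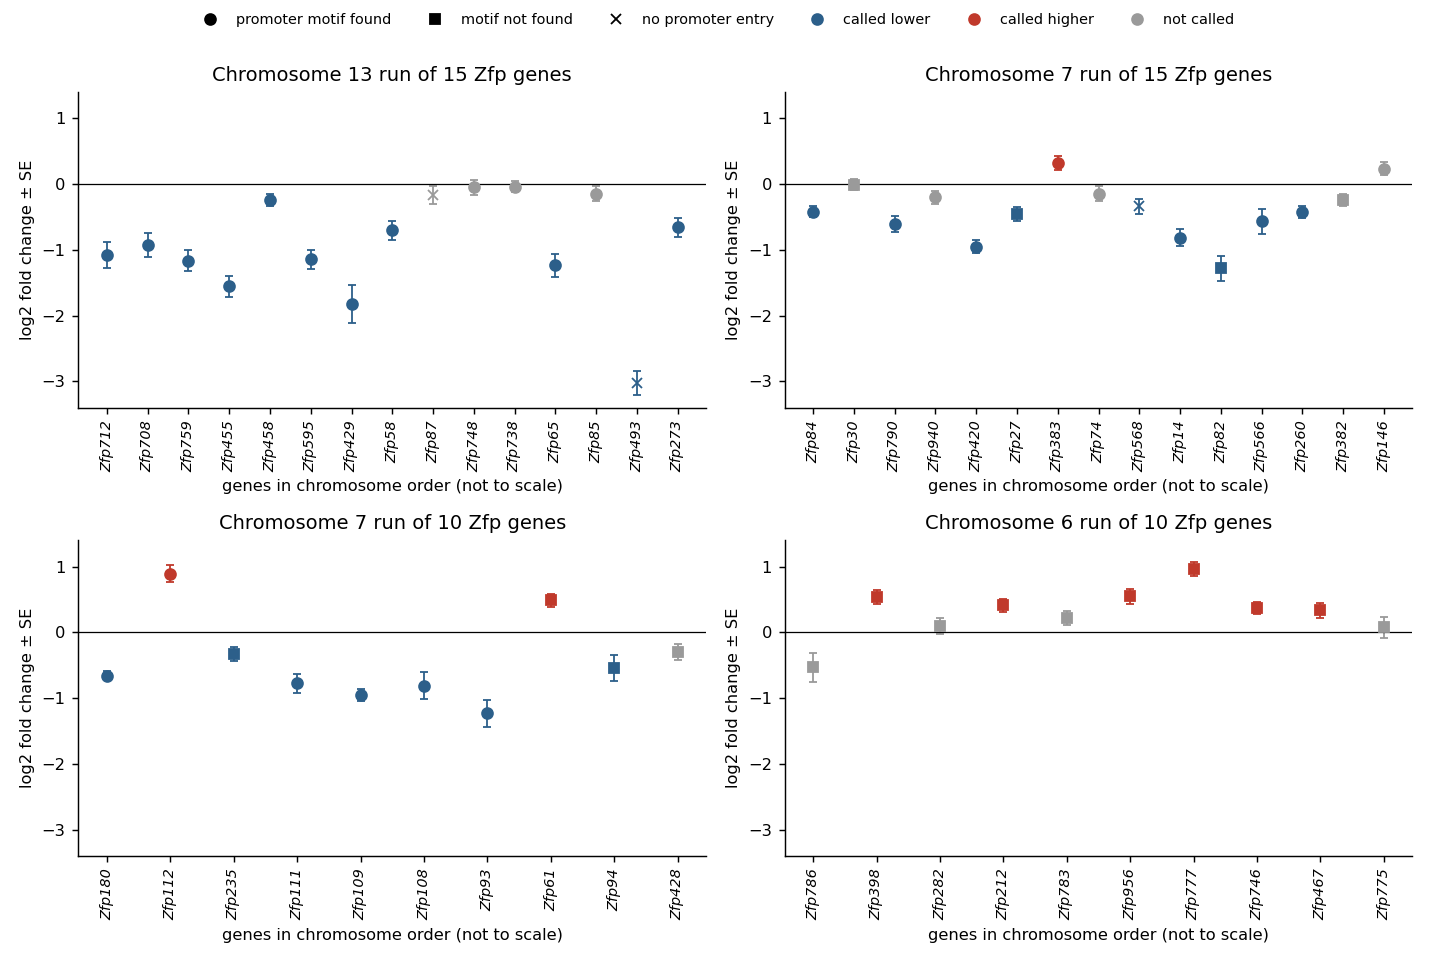
Log2 fold change with its SE for the genes of 4 chromosomal runs, in chromosome order and not to scale. Color gives the call and the marker shape whether the promoter motif was found, and all 15 genes of the chromosome 13 run lie below 0, whereas 9 of 10 in the chromosome 6 run lie above.

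Zfp genes of known role were read from lists. Of the 5 linked to imprinting or to the silencing of transposons, 4 were lower and 0 higher, all of them KRAB genes. Of all genes at the level 24% were lower, and of all KRAB genes 46.5%. Without control libraries 2 and 3, 3 of the 5 were lower, and with the Ttr covariate also 3. Zfp809, which recognises retroviral primer binding sites, had 8.30, 8.85, 5.72 and 6.51 CPM in bigenic and 14.1, 14.5, 13.7 and 15.2 in control libraries. The groups were apart and the fall was 1.95-fold (-0.96 ± 0.14, adjusted p = 0.000296, edgeR). Zfp932, which binds endogenous retroviruses, fell from 21.7 ± 2.61 to 13.1 ± 1.54 CPM, and Zfp708, which binds a retrotransposon family, from 14.6 ± 1.69 to 7.67 ± 2.22 CPM. Both share sequence with other genes, Zfp932 in 32.6% of its windows. Zfp568, a repressor of a placental Igf2 transcript, fell from 17.4 ± 2.20 to 13.8 ± 1.61 CPM with overlapping groups (-0.34 ± 0.12, adjusted p = 0.0366, edgeR), a call lost in 7 of 21 alternatives. These were the fits without bigenic library 2 (0.0666), 3 (0.066) or 4 (0.0649), without control library 2 (0.0759), 3 (0.118) or both (0.32), and with the Ttr covariate (0.663). Zfp445, a guardian of imprints, was at 163 ± 14.8 against 169 ± 9.01 CPM (-0.06 ± 0.08, adjusted p = 0.568).

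Zfp110 and Zfp369 code for partners of the p75 neurotrophin receptor. Zfp110 fell from 62.3 ± 2.88 to 53.0 ± 2.33 CPM (-0.23 ± 0.07, adjusted p = 0.0185, edgeR), a call lost without bigenic library 1 (0.052), control library 3 (0.0619), control libraries 2 and 3 (0.191) and with the Ttr covariate (0.263). Zfp369 was at 17.9 ± 2.93 against 21.4 ± 1.75 CPM (-0.25 ± 0.12, adjusted p = 0.108), and was called lower in 4 of 21 alternatives, without bigenic library 2 among them (0.0231).

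Regulators of neural and glial development had 4 higher and 0 lower of 11 (36.4% called, beside 46.9% of all genes at the level). Zfp423, which is needed for growth of the cerebellum and pairs with Smad and Ebf factors, had 47.7, 50.6, 41.5 and 39.3 CPM in bigenic and 32.8, 33.5, 27.7 and 31.8 in control libraries. Every bigenic value was above every control value, for a 1.42-fold rise (0.51 ± 0.10, adjusted p = 0.00194, edgeR). Zfp191, also known as Zfp24 and required for myelination by oligodendrocytes, had 162, 130, 192 and 168 CPM in bigenic and 110, 116, 121 and 111 in control libraries, again without overlap (0.51 ± 0.10, adjusted p = 0.00238). Zfp281, a regulator of pluripotency, rose from 88.2 ± 3.70 to 115 ± 19.6 CPM. Zfp335, required in neural progenitors, rose from 22.0 ± 1.83 to 28.0 ± 5.33 CPM, at an adjusted p of 0.0486 that most alternatives lost (0.0622 to 0.253 where it was not called). Zfp536 (0.28 ± 0.11), Zfp711 (0.35 ± 0.16), Zfp148 (0.16 ± 0.07), Zfp292 (0.16 ± 0.09), Zfp462 (-0.31 ± 0.17), Zfp827 (-0.08 ± 0.08) and Zfp521 were not called. Zfp462 was called lower in 3 of 21 alternatives, which were without bigenic library 2 (-0.54, adjusted p = 0.001, edgeR) and with the offsets for length (0.0224) and for length and GC (0.022). Zfp536 was called higher in 5, without control library 1 among them (0.0252), Zfp711 in 3, without bigenic library 2 among them (0.0466), and Zfp148 in 1. Without control libraries 2 and 3, 2 of the 11 were higher, and with the Ttr covariate 1.

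Cofactors of chromatin and transcription had 6 higher and 0 lower of 14 (42.9% called, beside 46.9% of all genes at the level). Zfp609, a partner of the cohesin loader Nipbl, rose from 93.5 ± 3.64 to 129 ± 20.1 CPM (0.46 ± 0.10, adjusted p = 0.00375, edgeR). Zfp91, a ubiquitin ligase, rose from 174 ± 7.13 to 239 ± 43.6 CPM, and its exons overlap those of Cntf. Zfp746, known as Paris and a substrate of parkin, rose from 39.1 ± 4.01 to 50.4 ± 4.42 CPM. Zfp592 rose from 39.9 ± 4.38 to 52.1 ± 5.34 CPM and Zfp451, a SUMO ligase, from 45.9 ± 1.80 to 56.9 ± 7.17 CPM. Zfp410, an activator of Chd4, was called at an adjusted p of 0.049 with overlapping groups (55.6 ± 9.36 against 45.6 ± 1.06 CPM), a call lost in 16 of 21 alternatives (0.0609 to 0.259), including without each library but bigenic library 2. The call of Zfp451 was lost in 7, without control library 2 among them (0.0607). Zfp219 (-0.40 ± 0.20), Zfp516 (-0.14 ± 0.10), Zfp608 (-0.08 ± 0.08), Zfp532 (-0.05 ± 0.07), Zfp687 (0.20 ± 0.12), Zfp384 (0.21 ± 0.13), Zfp143 and Zfp644 were not called. Zfp219 was called lower without bigenic library 1 (0.0449), with the replicate block (0.00182) and with the offset for length and GC (0.00874), Zfp516 lower with that offset (0.0357), and Zfp687 higher without bigenic library 3 (0.0338). Leaving out control libraries 2 and 3, 2 of the 14 were higher, and with the Ttr covariate 1.

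Zfp genes that act on RNA or translation had 3 higher and 0 lower of 8 (37.5% called, beside 46.9% of all genes at the level). Zfp106, an RNA-binding protein needed by motor neurons and muscle, had 266, 290, 282 and 260 CPM in bigenic and 217, 222, 232 and 225 in control libraries, a rise of 1.23-fold without overlap (0.29 ± 0.07, adjusted p = 0.00375, edgeR). Zfp326, of a complex that couples transcription with splicing, rose from 14.3 ± 1.79 to 20.9 ± 4.42 CPM, and Zfp622, a ribosome assembly factor, from 30.6 ± 1.21 to 38 ± 3.45 CPM. The ribosome collision sensor Zfp598 (0.17 ± 0.09), Zfp830 (0.10 ± 0.10), Zfp593 (0.07 ± 0.13), the kinetochore protein Zfp207 and Zfp346, which binds double-stranded RNA (-0.23 ± 0.09), were not called. Zfp346 was called lower in 8 of 21 alternatives (adjusted p of 0.0136 to 0.045), including with library size alone, without bigenic library 2 and with the replicate block. In the fit lacking control libraries 2 and 3, 1 of the 8 was higher, and with the Ttr covariate 0 (edgeR).

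The partners of the KRAB box were read from a list of 28 symbols, of which 26 were tested: 9 were lower and 3 higher. The share called, 46.2%, was near the 44.3% of all genes tested. Trim28, the scaffold itself, rose from 171 ± 13.7 to 237 ± 27.2 CPM, with 238, 199, 262 and 250 CPM in bigenic and 188, 176, 164 and 157 in control libraries (0.47 ± 0.09, adjusted p = 0.00203, edgeR). The groups did not overlap. Setdb1, the histone methyltransferase, fell from 61.0 ± 2.73 to 50.5 ± 2.76 CPM (-0.27 ± 0.07, adjusted p = 0.0104), a call lost without control libraries 2 and 3 (0.11) and with the Ttr covariate (0.201). Of the heterochromatin proteins, Cbx1 fell from 33.6 ± 2.33 to 19.5 ± 3.06 CPM (-0.78 ± 0.12, adjusted p = 0.000361) and Cbx5 from 290 ± 25.5 to 220 ± 12.2 CPM (-0.40 ± 0.08), while Cbx3 was not called (0.44 ± 0.17). Fam208a and Mphosph8, subunits of the silencing complex HUSH, fell from 191 ± 13 to 120 ± 14.4 CPM and from 62.0 ± 5.95 to 46.1 ± 1.06 CPM. The third subunit, Pphln1, was not called (0.22 ± 0.09, adjusted p = 0.0656). The other two higher genes were Sumo2, at 2.55 ± 0.290 against 1.32 ± 0.290 CPM, and 2810474O19Rik, and these, Pphln1 and Cbx3 are named here after a look at their values. Without control libraries 2 and 3, 5 were lower and 3 higher, and with the covariate 5 and 2. Without bigenic library 2, 7 were higher.

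**Figure D5:**
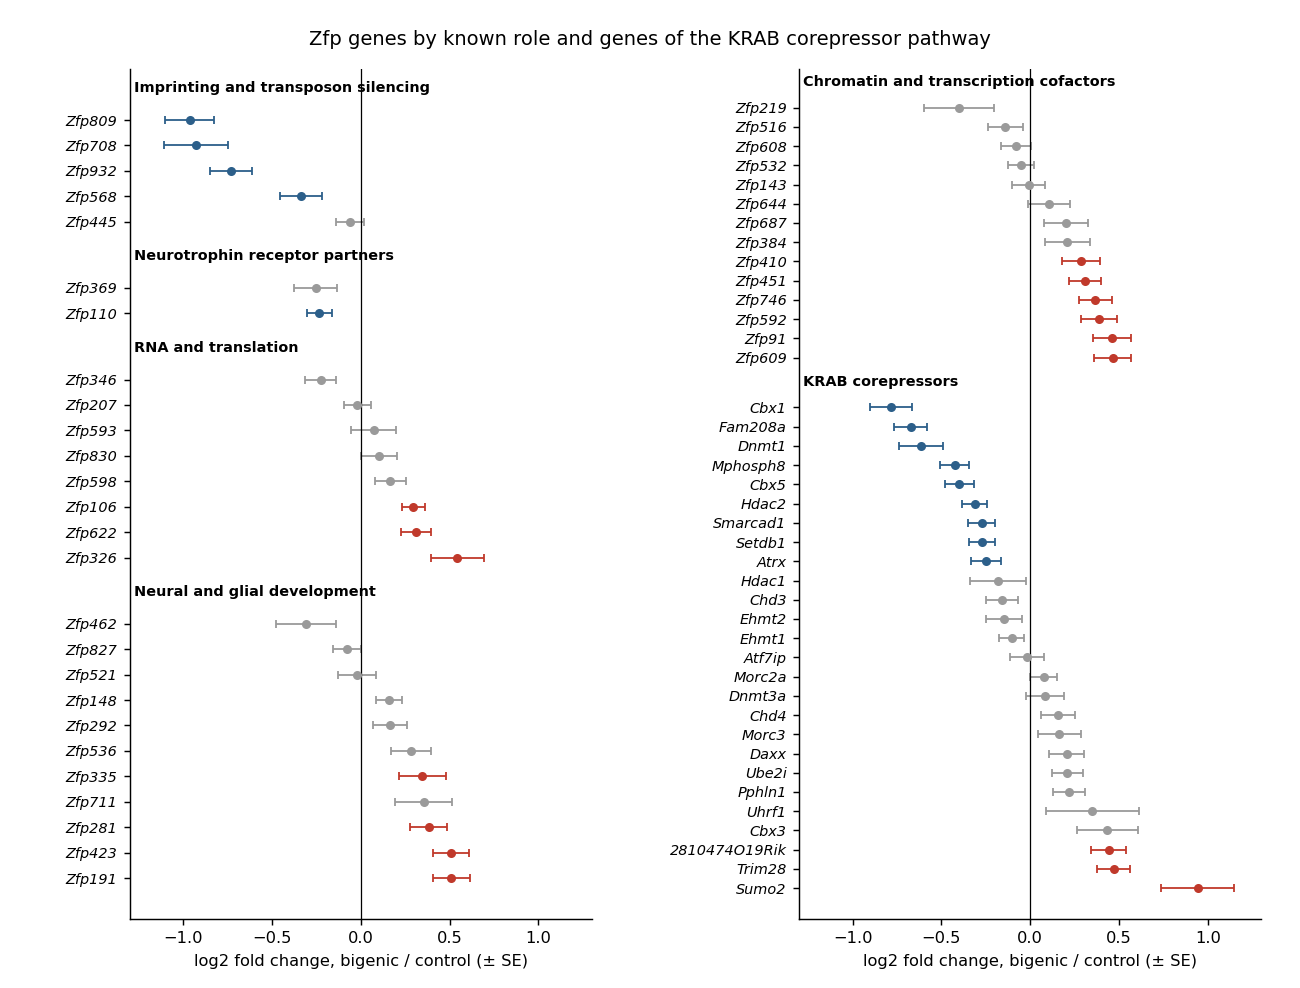
Log2 fold change with its SE for Zfp genes grouped by known role and for genes of the KRAB corepressor pathway. Each row is 1 gene, blue points were called lower, red higher and grey were not called, and 4 of 5 genes of the imprinting and transposon list are lower.

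Other zinc finger families were set beside the Zfp genes at the same control level. Among 34 Zbtb genes, whose proteins join fingers to a BTB domain, 16 were higher and 10 lower (47.1% and 29.4%), with a median log2 fold change of 0.23. Among 20 Zkscan and Zscan genes, 6 were higher and 6 lower. Among 22 Zfp genes with a letter after the number, 4 were higher and 5 lower. The differences between these families and the Zfp genes were not tested.

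Shared sequence bears on these counts, since duplicated genes can divide reads between them. Of the 279 genes, 191 had no 75-base window in common with another gene and 11 had more than 25% in common. Of these 11, 8 were lower (Zfp524, Zfp82, Zfp932, Zfp617, Zfp708, Zfp58, Zfp935 and Zfp960), Zfp963 was higher, and Zfp59 and Zfp414 were not called. The share called lower was 33.3% of all Zfp genes and 24% of all genes at the level. Exons of 86 genes overlapped those of another gene, on the opposite strand in 66.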

How the data were processed

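Cerebellar RNA from 8 mice was analysed as 4 bigenic and 4 control libraries. Each sample is a separate mouse, per the labels. The authors deposited whole-number read counts per gene, not normalised, and FPKM, which were checked to be those counts over a constant gene length and the library's total. STAR, HTSeq and mm10 are named per the submitters' processing notes. Versions and the strand setting are not given in the sources used here. Kits differ between the series design text (mirVana, Nugen Ovation, NextSeq) and, per the labels' protocols, the samples (Qiagen column, stranded TruSeq with rRNA removal, HiSeq4000).

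Counts were fitted with edgeR 4.0.16 in R 4.3.3 (filterByExpr, TMM, robust quasi-likelihood test, Benjamini-Hochberg over 15186 genes, called at an adjusted p under 0.05). CPM use TMM-scaled library sizes, and errors are SD over n = 4 for levels. For fold changes, the SE is the size of the log2 fold change over the square root of the test's F value. DESeq2 1.42.0 and limma 3.58.1 (log2(FPKM + 1) and log2(FPKM + 0.1)) served as alternatives. Counts were also simulated over 15076 genes, with 200 genes set to change. There the fit recovered 62.6% of genes changed 1.5-fold and 85.9% of those changed 2-fold, and 6.37% of calls were unchanged genes. In the data a far larger share was called, 44.3% of the genes tested, so these rates need not hold for this comparison. Gene positions, coding sequences, fingers and KRAB boxes come from GENCODE M21 (GRCm38, the build called mm10), matched by symbol for 278 Zfp genes and by an older symbol for 1. Promoters come from RefSeq on GRCm38.p6.

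The genes, lists and tests were chosen with earlier results of these data known. Named genes are the 12 lower and 12 higher with the smallest p among called Zfp genes whose groups do not overlap, the 6 of highest control FPKM, all role-list genes, the 3 on each side of the level, and neighbours in a run. Of the corepressors, the 4 with the smallest p, Trim28 and Setdb1 are named.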

Additional observations from a re-analysis of the deposited data

Results flagged for a closer look

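Of the 142 groups of 4 values behind the 71 genes named or listed, 15 held a library far from the other three by Dixon's ratio of gap to range at the 95% level. Chance alone flags about 5% of groups. Bigenic library 3 was the far one for Cbx1 (15 CPM, the others at 20.6 to 21.6), Zfp292 (278, others 220 to 224), Zfp281 (144, others 104 to 106), Zfp451 (67.6, others 52.4 to 53.9) and Zfp91 (304, others 212 to 223). Bigenic library 2 was highest for Zfp521 (283 CPM, others 210 to 218), Zfp462 (29.5, others 17.0 to 18.1) and Zfp445 (185, others 154 to 157). Bigenic library 1 was highest for Zfp963 (13.4 CPM), and bigenic library 4 for Cbx5 (238). Among the controls, library 4 was highest for Zfp109 (23.9 CPM), library 3 highest for Zfp949 (57.4) and lowest for Zfp622 (28.8), library 1 highest for Zfp346 (51.1) and library 2 highest for Zfp410 (47.2). The calls of Zfp109, Zfp963 and Zfp949 held without each of these libraries. Zfp410 was not called without bigenic library 3 (adjusted p = 0.125, edgeR) nor without any other library but bigenic library 2, and Zfp462 was called lower without bigenic library 2 (0.001).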

How the results depend on the processing

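Counts of lower Zfp genes kept within 1.5 times their reported value in every alternative except the Ttr covariate (54 lower, 13 higher, with 41 and 9 KRAB genes and 13 and 4 without the box). With control libraries 2 and 3 left out, 21 Zfp genes were higher, KRAB genes gave 47 lower and 10 higher, and 11 without the box were higher. Both alternatives gave 5 lower corepressors. On log2(FPKM + 1) with no filter, 28 were higher, 12 with and 16 without the box. With the offset for length and GC, chosen after seeing the data, 33 KRAB genes were higher and 6 corepressors, and DESeq2 also gave 6. Under that offset 28.5% of all genes at the level were higher, against 23% in the reported fit. The median over all Zfp genes moved to -0.1324 when libraries were scaled by size alone, to -0.1195 on log2(FPKM + 1), filtered or not, and to -0.1403 on log2(FPKM + 0.1). For genes without a KRAB box it was -0.0068, -0.0161 and -0.0177, thus reversed, and 0.0184 with upper-quartile factors and 0.1235 with the Ttr covariate. The median over all genes tested was -0.0893 with size alone, -0.0602 on filtered log2(FPKM + 1) and -0.0871 on log2(FPKM + 0.1). Leaving out 1 library gave 81 to 94 lower and 39 to 65 higher Zfp genes, and 3 to 7 higher corepressors.

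Genes near 0 changed sign. Zfp644 ranged from -0.0062 to 0.2093, Zfp207 from -0.0715 to 0.0134, Zfp521 from -0.1306 to 0.0225 and Zfp143 from -0.0629 to 0.0695 with 1 library left out. Without control libraries 2 and 3, Zfp207 was at 0.0285, Zfp521 at 0.0660 and Zfp143 at 0.1042. With the Ttr covariate, Zfp521 was at 0.1802 and Zfp143 at 0.1046. With the offset for length and GC, Zfp207 was at 0.0457, Zfp593 at -0.0094 and Zfp143 at 0.0662, and with length alone Zfp143 was at 0.0148. DESeq2 and RLE factors gave 0.0024 for Zfp143. Scaling by size alone gave -0.0130 for Zfp593, log2(FPKM + 1), filtered or not, -0.0100, and log2(FPKM + 0.1) -0.0123. Causes of these shifts were not tested.

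Same-numbered libraries were not treated as pairs, because the correlation of their deviations was not over 0.1 in every pair (0.329, 0.0239, 0.166 and 0.0625). That 6 of the 8 correlated best with their own number is a hint of pairing from the data, not the design. With the replicate number as a block, 99 Zfp genes were lower and 61 higher. KRAB genes gave 73 lower and 22 higher, genes without the box 26 and 39, and the medians were -0.0581, -0.2340 and 0.0671. Corepressors gave 9 lower and 3 higher. Genes below 1 CPM, such as Zfp493 in bigenic tissue, rest on few reads, and mice of 1 group number only 4.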
